A study of Homo sapiens with 18 samples.

Results

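The genes described here encode the enzymes that take glucose to pyruvate, the enzymes and carriers of lactate, the entry of pyruvate into the mitochondrion, and the tricarboxylic acid (TCA) cycle. They were taken by symbol from the deposited count table and make up 37 of its 41120 symbols. The succinate dehydrogenase subunits were not among them. Of the 37 genes, 36 had enough counts to be tested; the exception was ALDOA.

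The cells were 2 human head and neck squamous carcinoma lines, FADU-hfm (without human papillomavirus, HPV) and SCC154-hfm (HPV-positive), called FaDu and SCC154 below. Both lines, in every group, carried the hypoxia-fate mapping reporter, which switches a cell for good from red (DsRed) to green (GFP) fluorescence once it has met low oxygen. Spheroids of each line, raised in ultra-low attachment plates, were broken up with trypsin, and flow sorting gave red, non-hypoxic cells and green, post-hypoxic cells. The sorted cells were then cultured and passaged in normal oxygen before RNA was taken, for a time not given in the sources used here. There were 4 FaDu non-hypoxic, 5 FaDu post-hypoxic, 5 SCC154 non-hypoxic and 4 SCC154 post-hypoxic libraries. HPV status is the same as line in this design, and both cannot be told apart. In bulk RNA a smaller share of cells with a transcript and less of it per cell cannot be told apart either.

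Glycolysis splits glucose in the cytosol and yields a little ATP without oxygen; lactate dehydrogenase then regenerates the NAD+ that the pathway consumes. With oxygen, pyruvate is imported into mitochondria, oxidized to acetyl-CoA by pyruvate dehydrogenase and burnt in the TCA cycle, whose electrons feed the respiratory chain. Many glycolytic genes are targets of the hypoxia-inducible factors (HIF), which bind a short motif in DNA when oxygen is low, and squamous carcinomas are known for high glucose use.

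Messenger RNA was read with a 3′ tag kit, which counts the end of each transcript. Values are CPM, counts scaled by the size of the library with TMM factors, and library totals ran from 1654719 to 2503573 counts. A tag count does not grow with transcript length, but it depends on how the 3′ end is annotated. ALDOA, the muscle-type aldolase, had 10 counts in all 18 libraries together and at most 0.916 CPM in any one; a second protein-coding gene model of the same strand overlaps its 3′ end in GENCODE v29. PGAM1, the phosphoglycerate mutase, had 152 counts in all, beside 38 in 13 pseudogene rows. The median of the tested members' mean levels was 65.2 CPM, against 34.0 CPM over all 12291 genes tested. The 9 squamous epithelial markers were all tested and summed to between 1542 and 1928 CPM in each library, whereas no fibroblast, immune or endothelial marker passed the filter, and none of those 3 lists summed to more than 6.95 CPM. The labels do not say that replicates were separate cultures or sorts, so p-values measure the spread between these libraries, which may be technical.

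**Figure D1:**
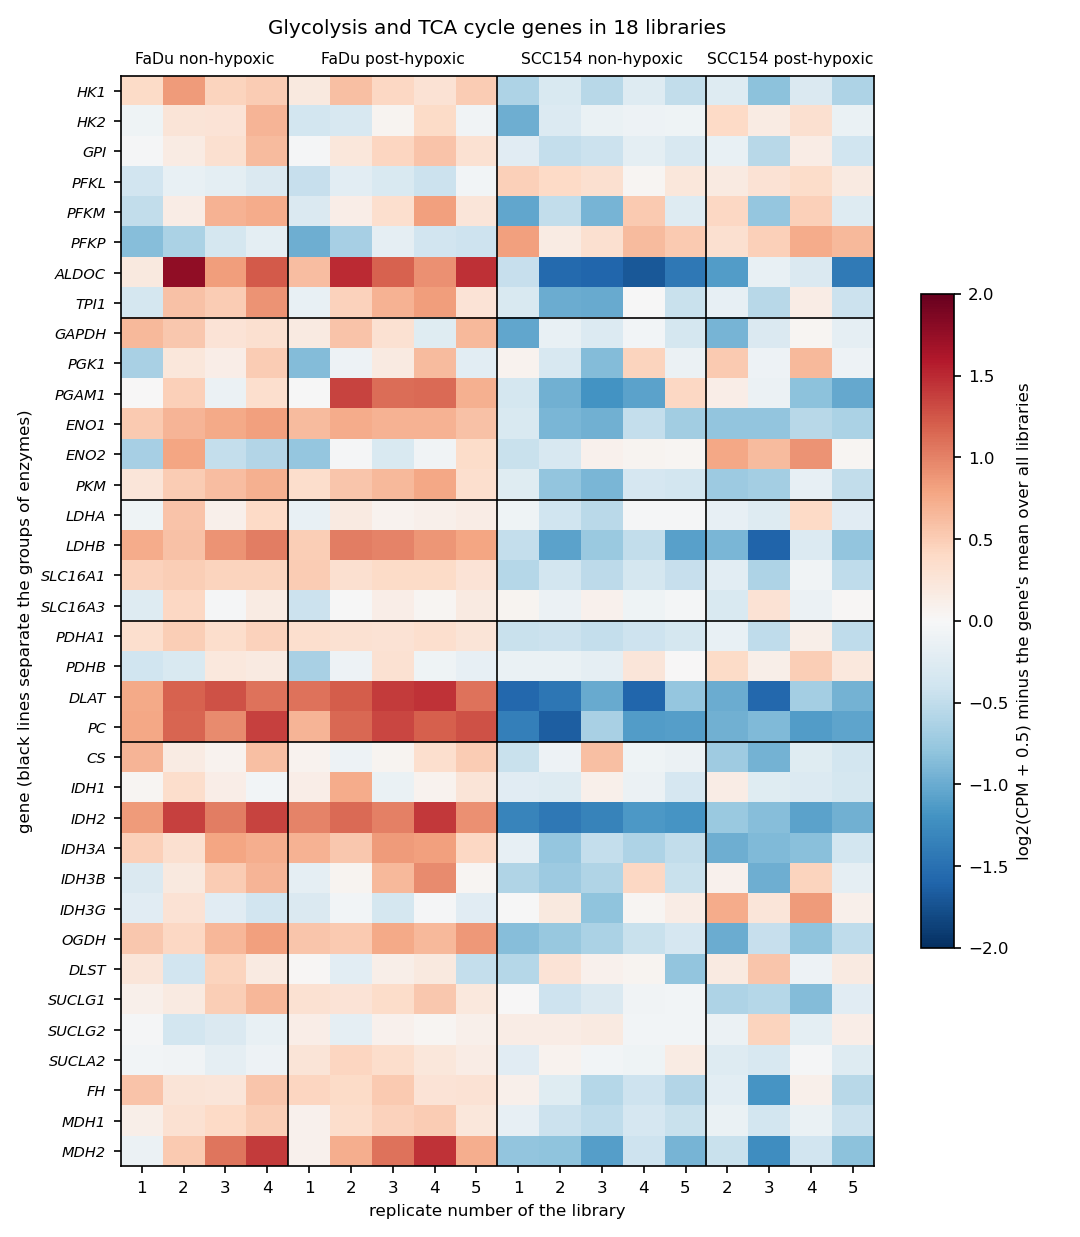
Each row is 1 of the 36 tested genes and each column 1 of 18 libraries; colour is log2(CPM + 0.5) minus the mean of that gene over all libraries. FaDu columns are mostly red and SCC154 columns mostly blue, with PFKL and PFKP the other way round, while the sorted fractions of a line look much alike.

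The comparison of sorted fractions asks which transcripts still differed, after reoxygenation, between cells with and without a past of low oxygen. In SCC154, 0 of 36 members passed edgeR's test at an adjusted p under 0.05, where 0.757% of all genes tested did. DESeq2 and limma voom called 0 members as well, and 6 of 36 members had an unadjusted p under 0.05, as did 1930 of the 12291 genes, a like share. By sign 26 members were higher in post-hypoxic cells and 10 lower, with a median log2 fold change of 0.11 against 0.00 over all genes. Without SCC154 post-hypoxic replicate 4 the median was 0.05, with 21 members higher, and without post-hypoxic replicate 5 it was 0.18. For 18 of the 36 the 95% interval lay within a 1.5-fold change either way; for the others a change of that size was neither shown nor bounded.

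Among the glycolytic genes of SCC154, the neuronal-type enolase ENO2 had the largest estimate. Its values were 17.2, 18.7, 25.2, 24.6 and 24.3 CPM in the non-hypoxic libraries and 40.7, 36.8, 44.5 and 24.4 CPM in the post-hypoxic ones. Only post-hypoxic replicate 5 fell within the range of the non-hypoxic libraries. The log2 fold change was 0.73 ± 0.26 (SE, adjusted p = 0.167), and this gene alone crossed the threshold when no filter on low counts was used. HK2, the hexokinase that is a classical HIF target, stood at 17.7, 28.8, 32.0, 32.8 and 33.0 CPM against 46.4, 39.2, 44.1 and 32.1 CPM. Its lowest library was non-hypoxic replicate 1, and 1 post-hypoxic library lay among the non-hypoxic ones. The estimate for HK2 was 0.49 ± 0.19 (SE, adjusted p = 0.218). For HK1, the housekeeping hexokinase, the estimate was -0.03.

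In the TCA cycle of SCC154 the estimates went both ways, 8 up and 6 down by sign, and none passed. SUCLG1, the subunit shared by both forms of succinyl-CoA synthetase, had the lowest p of the members: 182, 136, 148, 172 and 175 CPM in non-hypoxic cells and 118, 122, 99.1 and 154 CPM in post-hypoxic cells. Post-hypoxic replicate 5 was the single library inside the other group's range. Its log2 fold change was -0.40 ± 0.13 (SE, adjusted p = 0.151). Citrate synthase, CS, which opens the cycle, gave 22.1, 28.4, 46.3, 28.5 and 28.0 CPM against 18.3, 15.4, 25.7 and 23.5 CPM, a log2 fold change of -0.54 ± 0.21 (SE, adjusted p = 0.210). Non-hypoxic replicate 3 was far above the other SCC154 libraries. For IDH3A, the catalytic subunit of the NAD-linked isocitrate dehydrogenase, the values were 43.2, 28.4, 34.9, 31.5 and 34.2 CPM against 24.4, 26.1, 26.9 and 37.5 CPM, and the groups overlapped (-0.26 ± 0.16, SE; adjusted p = 0.467).

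The gamma subunit of the same enzyme, IDH3G, pointed the other way. It was counted at 13.3, 15.4, 7.44, 13.8 and 14.8 CPM in non-hypoxic SCC154 and at 22.8, 16.03, 24.5 and 14.4 CPM in post-hypoxic SCC154. Replicate 5 again sat with the non-hypoxic libraries, and the estimate was 0.58 ± 0.21 (SE, adjusted p = 0.168). IDH2, the mitochondrial NADP-linked isocitrate dehydrogenase, was the only member whose SCC154 groups did not overlap, which 5.55% of all genes did. Its values were 16.2, 14.9, 16.02, 18.1 and 17.7 CPM against 24.4, 22.6, 19.2 and 20.8 CPM. The log2 fold change of IDH2 was 0.38 ± 0.17 (SE, adjusted p = 0.263).

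In FaDu, again 0 of 36 members passed, and 0% of all genes did, although 298 genes had an unadjusted p under 0.05. With DESeq2 and limma voom 0 members passed too, and 2 had an unadjusted p under 0.05. Of the 36, 26 had a 95% interval within a 1.5-fold change, against 18 in SCC154. The intervals were about as wide in both lines, with a median half-width of 0.34 in FaDu and 0.36 in SCC154 on the log2 scale. The median log2 fold change in FaDu was -0.02. SUCLA2, the ATP-forming subunit of succinyl-CoA synthetase, had the lowest p. It was counted at 31.7, 31.2, 28.8 and 30.6 CPM in non-hypoxic cells and 39.6, 44.4, 42.0, 38.6 and 36.3 CPM in post-hypoxic cells. All post-hypoxic values lay above all non-hypoxic ones, with a log2 fold change of 0.39 ± 0.12 (SE, adjusted p = 1). PDHA1, the catalytic subunit of pyruvate dehydrogenase, was the other member without overlap, by a margin of less than 1 CPM, at 213, 236, 216 and 232 CPM against 212, 208, 206, 213 and 201 CPM. Groups without overlap made up 1.07% of all genes in FaDu.

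SUCLG2, the GTP-forming partner of SUCLG1, stood at 70.5, 55.5, 58.6 and 64.4 CPM in non-hypoxic and 78.1, 63.2, 75.4, 73.5 and 77.0 CPM in post-hypoxic FaDu cells. The groups overlapped, and the log2 fold change was 0.24 ± 0.13 (SE, adjusted p = 1). PGAM1 had the largest estimate, 0.81 ± 0.35 (SE, adjusted p = 1), from 3.31, 4.77, 2.98 and 4.29 CPM to 3.25, 9.16, 7.68, 7.80 and 5.69 CPM. These are few counts, and the groups overlapped. On the lower side, HK2 gave 33.1, 42.0, 42.7 and 56.3 CPM against 27.1, 27.9, 36.6, 46.0 and 33.3 CPM. These ranges overlapped widely, and the estimate was -0.34 ± 0.19 (SE, adjusted p = 1). LDHA, the lactate dehydrogenase subunit that makes lactate from pyruvate, was at 339.5, 537, 389 and 475 CPM against 325, 409.7, 380.4, 390.5 and 402 CPM, again with overlap. Its log2 fold change was -0.19 ± 0.14 (SE, adjusted p = 1), and that of HK1 was -0.15 ± 0.13 (SE, adjusted p = 1).

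**Figure D2:**
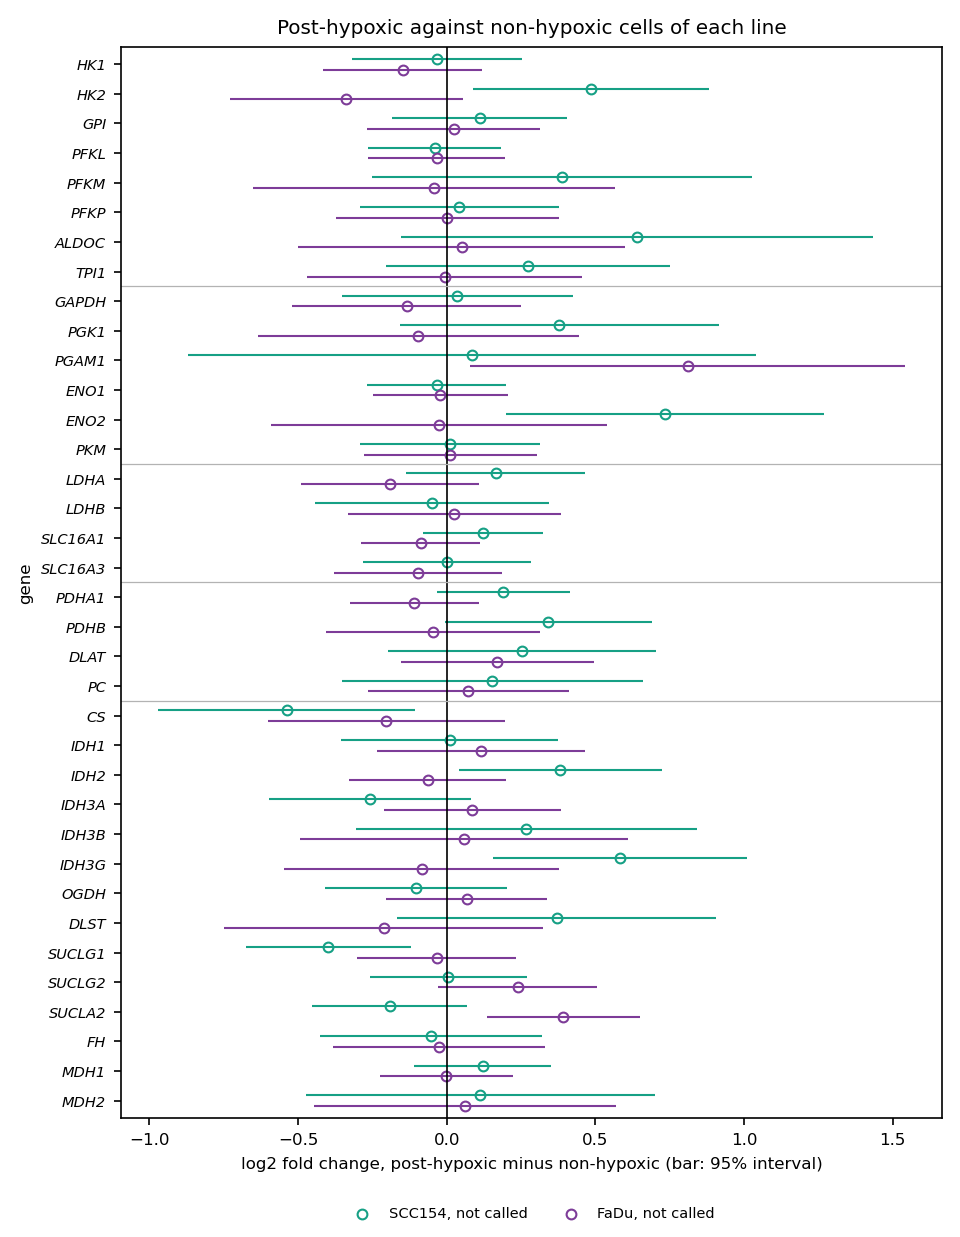
Points are log2 fold changes of post-hypoxic against non-hypoxic cells for the 36 tested genes, in SCC154 (teal) and FaDu (purple); bars are 95% intervals and open points did not pass the test. None passed; estimates ran from -0.54 (CS) to 0.73 (ENO2) in SCC154 and from -0.34 (HK2) to 0.81 (PGAM1) in FaDu.

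The difference between the lines in this response was tested as an interaction, in which 0 of 36 members and 0.0163% of all genes passed; 4 members and 1202 genes had an unadjusted p under 0.05, and DESeq2 and limma voom called 0. HK2 differed most in the positive direction, at 0.82 ± 0.27 (SE, adjusted p = 0.329), being higher by estimate in post-hypoxic SCC154 and lower in post-hypoxic FaDu. SUCLA2 had the lowest p, at -0.58 ± 0.18 (SE, adjusted p = 0.321). The intervals left room for differences of more than 1.5-fold in all but 11 members.

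The other genes of these pathways gave no call within a line either. In SCC154 the 13 tested HIF targets outside glycolysis had 0 calls, 11 of them higher by sign, where the median was 0.25 on the log2 scale and 5 had an unadjusted p under 0.05. In FaDu they had 0 calls and 0 unadjusted p under 0.05, 5 were higher by sign, and the median was -0.08. SLC2A1, the main glucose importer of carcinoma cells, gave 0.20 (adjusted p = 0.677) in SCC154 and -0.02 (adjusted p = 1) in FaDu. PDK1, the kinase that switches pyruvate dehydrogenase off, gave 0.01 (adjusted p = 0.994) and -0.07 (adjusted p = 1). Estimates for BNIP3, a mitophagy receptor, were 0.46 (adjusted p = 0.152) and -0.28 (adjusted p = 1); those for the growth factor VEGFA were -0.48 (adjusted p = 0.353) and 0.28 (adjusted p = 1); and those for the peptide hormone ADM were 0.25 (adjusted p = 0.553) and -0.36 (adjusted p = 1). CA9, the membrane carbonic anhydrase often used as a hypoxia marker, had 0 counts in the 5 non-hypoxic SCC154 libraries, which allows up to 0.283 CPM, and 5 counts over the 4 post-hypoxic ones; in FaDu its estimate was 0.17 (adjusted p = 1). NDRG1, another such marker, gave 0.76 (adjusted p = 0.587) and -0.19 (adjusted p = 1). It was at 71.2 CPM in SCC154 post-hypoxic replicate 3 and at 4.07 to 9.03 CPM in the other post-hypoxic libraries. Non-hypoxic SCC154 libraries were at 9.615 to 15.45 CPM, above every post-hypoxic one except replicate 3, on which the positive estimate rests. In replicate 3 the glycolytic and lactate members were not high: their median deviation from the group mean was -0.13 on the log2 scale.

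Between the lines the members differed widely, and mostly in one direction. Of the 36, 22 were lower in SCC154 than in FaDu among non-hypoxic cells and 2 were higher, where 34.5% of all genes were called lower and 34.5% higher. Among post-hypoxic cells, 23 were lower and 5 higher, against 34.9% and 34.8% of all genes. These comparisons share no library. In both, 19 members were lower and 2 were higher, against 30.1% and 30.1% of all genes; no member was called in opposite directions. The median log2 difference of the members was -0.69 in non-hypoxic and -0.61 in post-hypoxic cells, and that of all genes was -0.01 and 0.01.

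In the upper part of glycolysis, GPI (which isomerizes glucose 6-phosphate), HK1, ALDOC and TPI1 (triosephosphate isomerase) were lower in SCC154 in both comparisons. ALDOC, the brain-type aldolase and the only aldolase here with usable counts, was at 18.9, 57.6, 29.8 and 39.2 CPM in non-hypoxic FaDu and at 25.5, 47.2, 37.9, 31.6 and 46.4 CPM in post-hypoxic FaDu. In SCC154 it was at 11.8, 5.29, 5.15, 4.75 and 5.77 CPM, and at 7.33, 14.8, 13.5 and 5.87 CPM. No SCC154 library reached the lowest FaDu library. As with ALDOA, a second protein-coding model of the same strand overlaps the 3′ ends of ALDOC, GPI and LDHB in GENCODE v29. The log2 differences were -2.48 ± 0.33 (SE, adjusted p = 4.79e-07) in non-hypoxic and -1.89 ± 0.31 (SE, adjusted p = 1.13e-05) in post-hypoxic cells. For HK1 they were -1.003 and -0.886 (adjusted p = 4.89e-07 and 3.69e-06), from 107, 148, 113 and 117 CPM and 94.3, 125, 110.2, 100.2 and 118 CPM in FaDu to 53.5, 66.3, 56.1, 68.6 and 58.2 CPM and 68.4, 46.3, 67.3 and 53.7 CPM in SCC154. HK1 values of the lines did not overlap. HK2 was lower in SCC154 among non-hypoxic cells (-0.58, adjusted p = 0.00984) and not called among post-hypoxic cells (0.24, adjusted p = 0.265); the first call was lost without FaDu non-hypoxic replicate 4.

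Phosphofructokinase, the main control point of glycolysis, was the exception. PFKP, the platelet-type subunit, was at 18.9, 22.1, 26.8 and 30.0 CPM and 17.3, 21.5, 30.3, 26.3 and 25.8 CPM in FaDu, against 61.4, 38.9, 43.5, 53.9 and 49.9 CPM and 43.2, 48.1, 58.3 and 54.6 CPM in SCC154. Every SCC154 library was above every FaDu library, with log2 differences of 1.02 ± 0.18 (SE, adjusted p = 1.77e-05) and 1.07 ± 0.17 (SE, adjusted p = 6.46e-06). PFKL, the liver-type subunit, was at 77.6, 91.4, 88.9 and 83.1 CPM and 73.7, 87.4, 82.2, 75.1 and 97.6 CPM in FaDu, and at 141, 134, 128, 105 and 119.6 CPM and 115, 125, 131 and 116 CPM in SCC154. Again no values overlapped, and the log2 differences were 0.55 ± 0.11 (SE, adjusted p = 0.000115) and 0.55 ± 0.11 (SE, adjusted p = 0.000107). PFKM, the muscle-type subunit, was not called (-0.66 and -0.23; adjusted p = 0.0595 and 0.503), at 20.3, 32.1, 46.7 and 48.3 CPM and 23.3, 31.6, 36.6, 50.9 and 34.1 CPM in FaDu beside 13.7, 20.2, 14.9, 41.4 and 23.9 CPM and 38.3, 16.6, 40.4 and 23.9 CPM in SCC154.

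In the lower, ATP-yielding part, ENO1, PKM and GAPDH were lower in SCC154 in both comparisons. ENO1, the common enolase, was at 694, 769.9, 813 and 851 CPM and 749.8, 810.3, 779.7, 781 and 729 CPM in FaDu, and at 391, 255, 248, 345 and 298 CPM and 281, 279.6, 330.0 and 311 CPM in SCC154. The gap between the lines was wide, with log2 differences of -1.35 ± 0.11 (SE, adjusted p = 2.51e-10) and -1.36 ± 0.11 (SE, adjusted p = 3.52e-10). For PKM, the pyruvate kinase of most tumour cells, the differences were -1.04 and -1.04. GAPDH, the glyceraldehyde phosphate dehydrogenase often used as a reference gene, differed by -0.79 and -0.62 (adjusted p = 0.000654 and 0.00564). PGK1, the first kinase to return ATP, was called in neither, with intervals that reach past a 1.5-fold change (-0.20 and 0.27; adjusted p = 0.511 and 0.349). PGAM1 was lower in post-hypoxic SCC154 (-1.49, adjusted p = 0.00145) and not called in non-hypoxic cells (-0.76, adjusted p = 0.115). ENO2 was at 14.7, 41.2, 16.9 and 15.6 CPM and 13.6, 23.3, 19.0, 22.6 and 30.6 CPM in FaDu. Set beside the SCC154 values above, it was called higher in post-hypoxic cells, at 0.74 ± 0.26 (SE, adjusted p = 0.0144), where replicate 5 overlapped FaDu, and not in non-hypoxic cells (-0.02, adjusted p = 0.947). The non-hypoxic estimate of ENO2 ran from -0.18 to 0.49 over 29 alternatives, none of which called it. Its adjusted p was lowest, at 0.0839 by edgeR, without FaDu non-hypoxic replicate 2, the library at 41.2 CPM.

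Among the lactate genes, LDHB, the heart-type subunit, was at 192, 172, 213 and 233 CPM and 160.5, 233, 226, 210.2 and 197 CPM in FaDu. In SCC154 it was at 81.5, 53.8, 68.1, 80.7 and 53.2 CPM and 60.3, 37.4, 94.6 and 65.5 CPM. The lines stood far apart, with log2 differences of -1.58 ± 0.18 (SE, adjusted p = 5.39e-08) and -1.66 ± 0.19 (SE, adjusted p = 4.11e-08). SLC16A1, the carrier MCT1 that moves lactate either way, was at 667, 679, 657 and 659.8 CPM and 689, 602, 630.2, 629 and 583 CPM in FaDu, and at 326, 376, 336, 378 and 351 CPM and 420.1, 315, 461 and 341 CPM in SCC154. All SCC154 values were lower, and the differences were -0.91 and -0.70 (adjusted p = 1.61e-08 and 1.09e-06). SLC16A3, the lactate exporter MCT4 and a HIF target, was at 138, 219, 162 and 183 CPM and 122, 163, 180.2, 169 and 187 CPM in FaDu, and at 171, 151, 174, 155 and 160.5 CPM and 133, 200, 151 and 167 CPM in SCC154. These ranges overlapped, and it was not called (-0.12 and -0.02; adjusted p = 0.459 and 0.911). Its 3′ end overlaps CSNK1D on the other strand, which held 2762 counts beside the 6406 of SLC16A3, and the strand setting of the counting is not given in the sources used here. In SCC154, LDHA was at 342, 274, 251, 355 and 356 CPM and 324, 302, 479 and 310.1 CPM, and it was called lower than in FaDu in non-hypoxic cells but not in post-hypoxic ones (-0.46 and -0.11; adjusted p = 0.00713 and 0.521).

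At the entry of pyruvate into the mitochondrion the differences were among the widest of the members. DLAT, the acetyltransferase core of the pyruvate dehydrogenase complex (chr11:112024814-112064390, GRCh38, GENCODE v29), was at 44.0, 58.9, 63.1 and 55.3 CPM and 55.3, 60.4, 68.7, 71.0 and 55.1 CPM in FaDu. In SCC154 it was at 8.35, 9.13, 12.6, 8.20 and 14.8 CPM and 12.6, 8.31, 15.9 and 13.1 CPM. The log2 differences were -2.37 ± 0.19 (SE, adjusted p = 9.73e-11) and -2.29 ± 0.19 (SE, adjusted p = 1.84e-10). On the other strand PIH1D2 overlaps its 3′ end and held 55 counts beside 1370. PC, pyruvate carboxylase, which refills the cycle with oxaloacetate (chr11:66848233-66958376), was at 25.5, 33.4, 28.8 and 38.6 CPM and 23.9, 33.0, 37.9, 34.1 and 36.3 CPM in FaDu, against 5.40, 4.33, 9.15, 6.47 and 6.60 CPM and 7.33, 7.72, 6.53 and 6.77 CPM in SCC154. Neither gene overlapped between the lines, and for PC the differences were -2.30 ± 0.20 (SE, adjusted p = 5.32e-10) and -2.22 ± 0.20 (SE, adjusted p = 1.02e-09). PDHA1 differed less, by -0.84 and -0.54 (adjusted p = 2.72e-07 and 0.000107). PDHB, its beta partner, was not called lower: 26.0, 27.7, 39.7 and 39.2 CPM and 21.7, 32.0, 42.5, 32.4 and 30.6 CPM in FaDu stood beside 31.4, 31.2, 30.3, 40.6 and 34.6 CPM and 44.8, 37.4, 48.5 and 39.7 CPM in SCC154. Its differences were 0.03 (adjusted p = 0.881) and 0.42 (adjusted p = 0.0307); the second missed the threshold without FaDu post-hypoxic replicate 1 or 5 or without SCC154 post-hypoxic replicate 2 or 4.

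In the TCA cycle, 7 members were lower in SCC154 in both comparisons, namely IDH2, IDH3A, OGDH, SUCLG1, FH, MDH1 and MDH2, and none was higher in both. IDH2 (chr15:90083045-90102504) was at 74.2, 107, 83.4 and 106 CPM and 81.9, 90.2, 83.1, 109.6 and 77.5 CPM in FaDu, against the 14.9 to 24.4 CPM given above in SCC154. Its log2 differences were -2.47 ± 0.15 (SE, adjusted p = 7.82e-13) and -2.03 ± 0.15 (SE, adjusted p = 2.63e-11), with the lowest p of all members in each comparison. OGDH, the first subunit of the 2-oxoglutarate dehydrogenase complex, differed by -1.21 and -1.38 and IDH3A by -1.09 and -1.43. MDH2, the mitochondrial malate dehydrogenase, was at 51.1, 80.6, 118 and 148 CPM and 59.1, 92.5, 118, 152 and 92.3 CPM in FaDu, and at 31.9, 31.7, 25.7, 41.9 and 28.9 CPM and 40.7, 23.1, 42.4 and 31.1 CPM in SCC154. The FaDu range was wide, yet it did not reach the SCC154 values; the differences were -1.62 ± 0.26 (SE, adjusted p = 9.65e-06) and -1.57 ± 0.27 (SE, adjusted p = 1.73e-05). Fumarase, FH, differed by -0.74 and -0.76, and MDH1, the cytosolic malate dehydrogenase, by -0.71 and -0.59. MDH1 was at 178, 203, 217 and 231 CPM and 173, 209, 225, 234 and 193 CPM in FaDu, and at 145, 121, 115, 129 and 119.6 CPM and 149, 127, 149.7 and 122 CPM in SCC154. No MDH1 values overlapped between the lines; its 3′ end overlaps WDPCP on the other strand, which held 356 counts beside 6548.

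The other 7 TCA members were less uniform. IDH3G was higher in post-hypoxic SCC154 than in post-hypoxic FaDu, at 14.4 to 24.5 CPM against 10.4 to 13.1 CPM (0.74 ± 0.21, SE; adjusted p = 0.00317), and did not differ by the test in non-hypoxic cells (0.07; adjusted p = 0.787). CS and SUCLA2 were lower in the post-hypoxic comparison (-0.73 and -0.50; adjusted p = 0.00307 and 0.00107) and not called in the other. IDH3B was called lower in non-hypoxic cells at an adjusted p of 0.0434, and IDH1 lower in post-hypoxic cells at 0.0389; the IDH3B call was lost without any 1 of the 9 non-hypoxic libraries except SCC154 replicate 4 and FaDu replicate 1, and the IDH1 call passed in 18 of 29 alternatives, failing with DESeq2, without FaDu post-hypoxic replicate 2 or 5 and without SCC154 post-hypoxic replicate 3, 4 or 5 among others. DLST, the succinyltransferase of the 2-oxoglutarate dehydrogenase complex, stood at 4.12 to 11.3 CPM over all libraries and was called in neither comparison, as was SUCLG2.

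**Figure D3:**
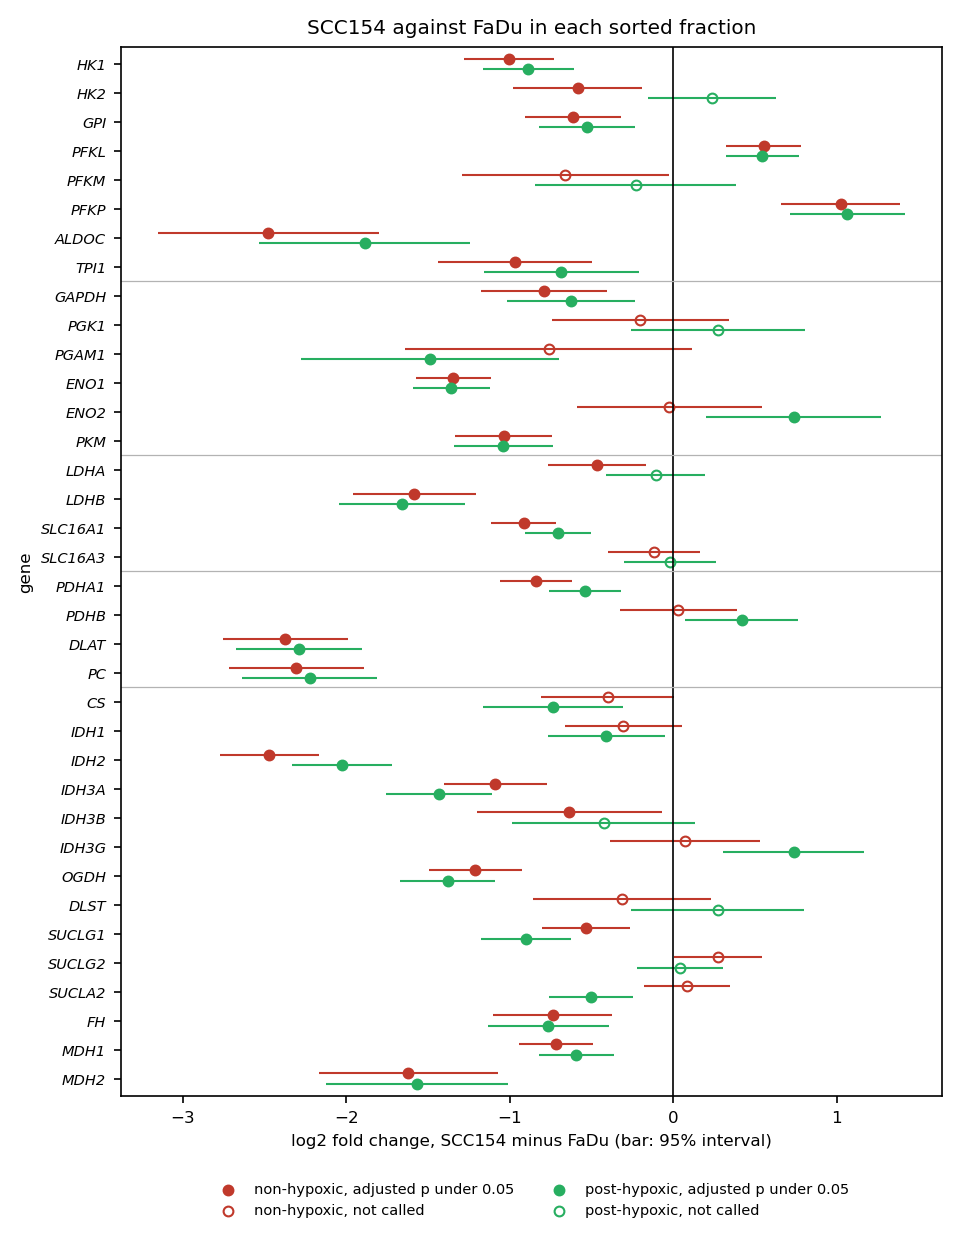
Points are log2 differences of SCC154 minus FaDu for the 36 tested genes among non-hypoxic (red) and post-hypoxic (green) libraries, with 95% intervals; filled points passed the test at an adjusted p under 0.05. Most filled points lie left of 0, the farthest being ALDOC, IDH2, DLAT and PC, and PFKL and PFKP lie right of 0 in both.

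Several reactions are run by isoenzymes from separate genes, and 11 such pairs were compared as the log2 ratio of their CPM within a library, after adding 0.5 CPM to each. The size of a ratio also depends on how well each 3′ end was counted, so only its difference between groups is read. An exact permutation test, two-sided, was run on 44 differences and adjusted over them. Within a line 0 of 22 passed: the smallest unadjusted p of the exact permutation test was 0.0238 in SCC154 (adjusted p = 0.0582) and 0.294 in FaDu (adjusted p = 0.461). Between the lines 14 of 22 passed, 6 in non-hypoxic and 8 in post-hypoxic cells, with adjusted p from 0.0388 to 0.0499 by the exact permutation test. These calls were close to the limit of the design: leaving out any 1 library ended all 14.

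Within a line, the hexokinase pair and IDH2 to IDH1 shared the smallest p, both in SCC154. In SCC154 the HK2 to HK1 ratio lay between 0.336 and 0.575 in non-hypoxic libraries and between 0.600 and 0.848 in post-hypoxic ones, with no overlap. In FaDu it lay between 0.286 and 0.482 and between 0.226 and 0.462. Post-hypoxic SCC154 thus had the highest ratio of the 4 groups, 1.15 above post-hypoxic FaDu on the log2 scale (adjusted p = 0.0499, exact permutation test). The ENO2 to ENO1 ratio passed in post-hypoxic cells in the same direction, by 2.10 on the log2 scale, at 0.0797 to 0.147 in SCC154 against 0.0187 to 0.0427 in FaDu.

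LDHB to LDHA, whose balance is often read as a leaning towards lactate use or lactate making, was lower in SCC154 in both comparisons. It ranged from 0.150 to 0.273 and 0.125 to 0.212 in non-hypoxic and post-hypoxic SCC154, and from 0.321 to 0.565 and 0.491 to 0.596 in FaDu. No SCC154 library reached a FaDu library. The IDH2 to IDH1 ratio, mitochondrial to cytosolic, was 0.5676 to 0.847 and 0.825 to 1 in SCC154 and 2.68 to 4.05 and 2.00 to 3.87 in FaDu. Its difference between the SCC154 fractions was 0.38 on the log2 scale, with overlap (adjusted p = 0.0582, exact permutation test). IDH1 itself was at 27.4, 34.2, 29.3 and 25.7 CPM and 29.3, 44.9, 24.4, 27.9 and 32.0 CPM in FaDu, and at 22.6, 22.1, 28.6, 24.6 and 21.0 CPM and 29.7, 22.6, 22.03 and 20.8 CPM in SCC154. Its values overlapped between the lines, and those of IDH2 did not. The MDH2 to MDH1 ratio was lower in SCC154 too, by 0.82 and 0.95 on the log2 scale, with values that overlapped between the non-hypoxic groups.

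The ratios of SLC16A3 to SLC16A1 and of PFKP to PFKM were higher in SCC154 in both comparisons. For the lactate carriers the ratio was 0.402 to 0.525 and 0.317 to 0.635 in SCC154, against 0.208 to 0.324 and 0.178 to 0.321 in FaDu. For phosphofructokinase it was 1.30 to 4.34 and 1.13 to 2.84, against 0.579 to 0.932 and 0.521 to 0.8295. The ALDOC to ALDOA ratio passed as well, but its denominator rests on 10 counts. Ratios of PFKP to PFKL, PFKL to PFKM and SUCLG2 to SUCLA2 did not pass in any comparison.

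**Figure D4:**
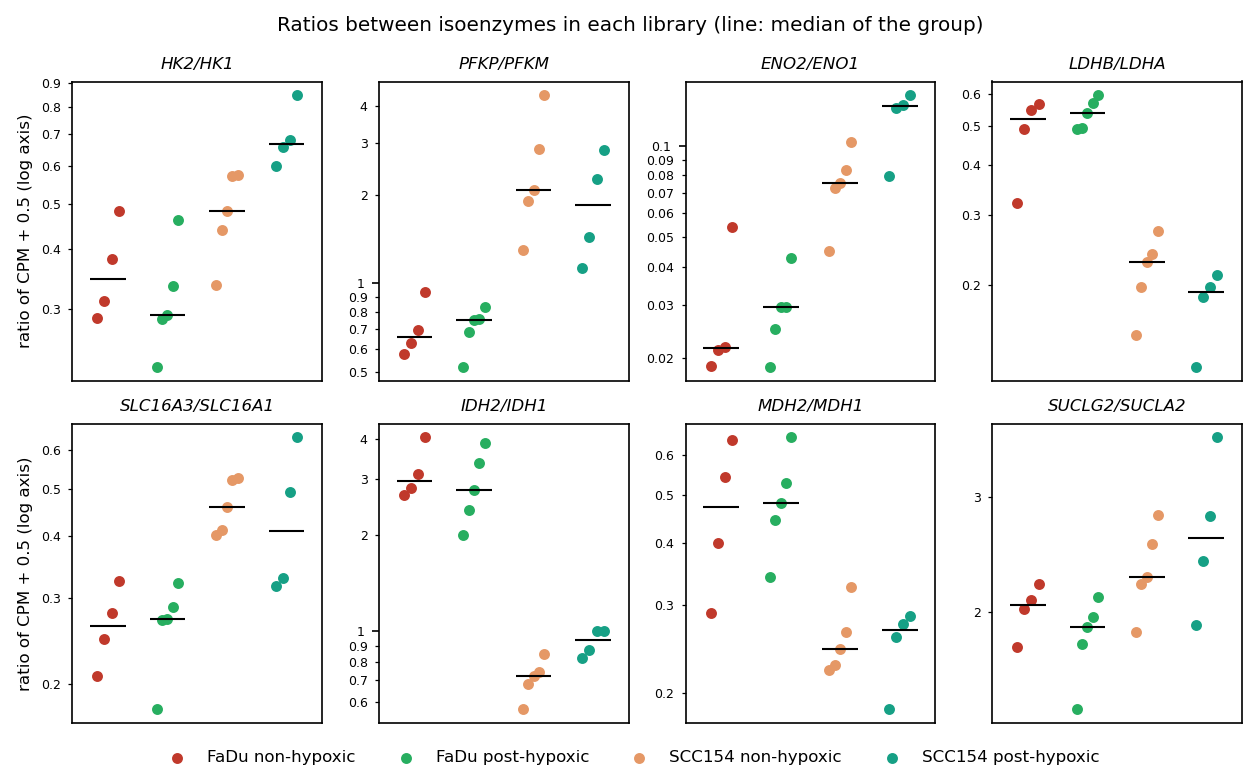
Each point is the ratio of 2 isoenzymes' CPM, each plus 0.5, in 1 library, on a log axis; colours are the 4 groups and lines the group medians. LDHB to LDHA and IDH2 to IDH1 are lower in every SCC154 library than in any FaDu library, PFKP to PFKM is higher, and SUCLG2 to SUCLA2, which did not pass, is shown for contrast.

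FaDu libraries that carry the same replicate number resembled each other across the sorted fractions, most clearly those of numbers 1 and 4, and the members took part in this strongly. A model with the replicate number as a term was fitted to the 8 FaDu libraries whose number, 1 to 4, occurs in both fractions; it was chosen after seeing the data. The term was called for 18 of 36 members, or 50%, against 21.2% of all genes. The same numbers had been found to pair the libraries from correlations over these counts, so these calls describe the libraries and are not independent of that finding. By role the calls were 6 of 8 members of upper glycolysis, 4 of 6 of lower glycolysis, 2 of 4 lactate genes, 1 of 4 at pyruvate entry and 5 of 14 in the TCA cycle. Number 1 carried much of it: without it 10 members (27.8%) and 7.15% of all genes were called, and without number 4 13 members (36.1%) and 13.5%.

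MDH2 was the clearest case (chr7:76048051-76067508). Its non-hypoxic and post-hypoxic values were 51.1 and 59.1 CPM for number 1, 80.6 and 92.5 CPM for number 2, 118 and 118 CPM for number 3, and 148 and 152 CPM for number 4. The fractions of a number thus differed far less than the numbers did, which spanned 1.45 on the log2 scale (adjusted p = 2.16e-09). TPI1 was at 137 and 158, 261 and 241, 249 and 284, and 325 and 312 CPM in the same order, a span of 1.11 (adjusted p = 9.99e-09); its 3′ end overlaps SPSB2 on the other strand, which held 383 counts beside 7371. PGK1, at 61.5 and 53.1, 113 and 90.6, 107 and 109, and 138 and 150.3 CPM, spanned 1.33 (adjusted p = 7.63e-08). For IDH3B, the beta subunit of NAD-linked isocitrate dehydrogenase, the pairs were 48.2 and 52.0, 67.6 and 61.8, 84.4 and 92.6, and 94.9 and 114 CPM. In all 4 genes number 1 was lowest and number 4 highest in both fractions.

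Over the members, 21 of 36 (58.3%) had their lowest FaDu value at number 1 in both fractions, against 18.1% of all genes. The highest value was at number 4 in both fractions for 10 members (27.8%), against 13.5% of all genes. GAPDH did not follow this order and was lowest at number 3 in non-hypoxic and at number 4 in post-hypoxic cells. It was at 1371 and 983, 1265 and 1294, 1059.7 and 1072, and 1087 and 740.3 CPM for numbers 1 to 4. PDHA1, SLC16A1 and SUCLA2 were not called for the number (adjusted p = 0.874, 0.827 and 0.943), with spans of 0.07, 0.08 and 0.13.

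**Figure D5:**
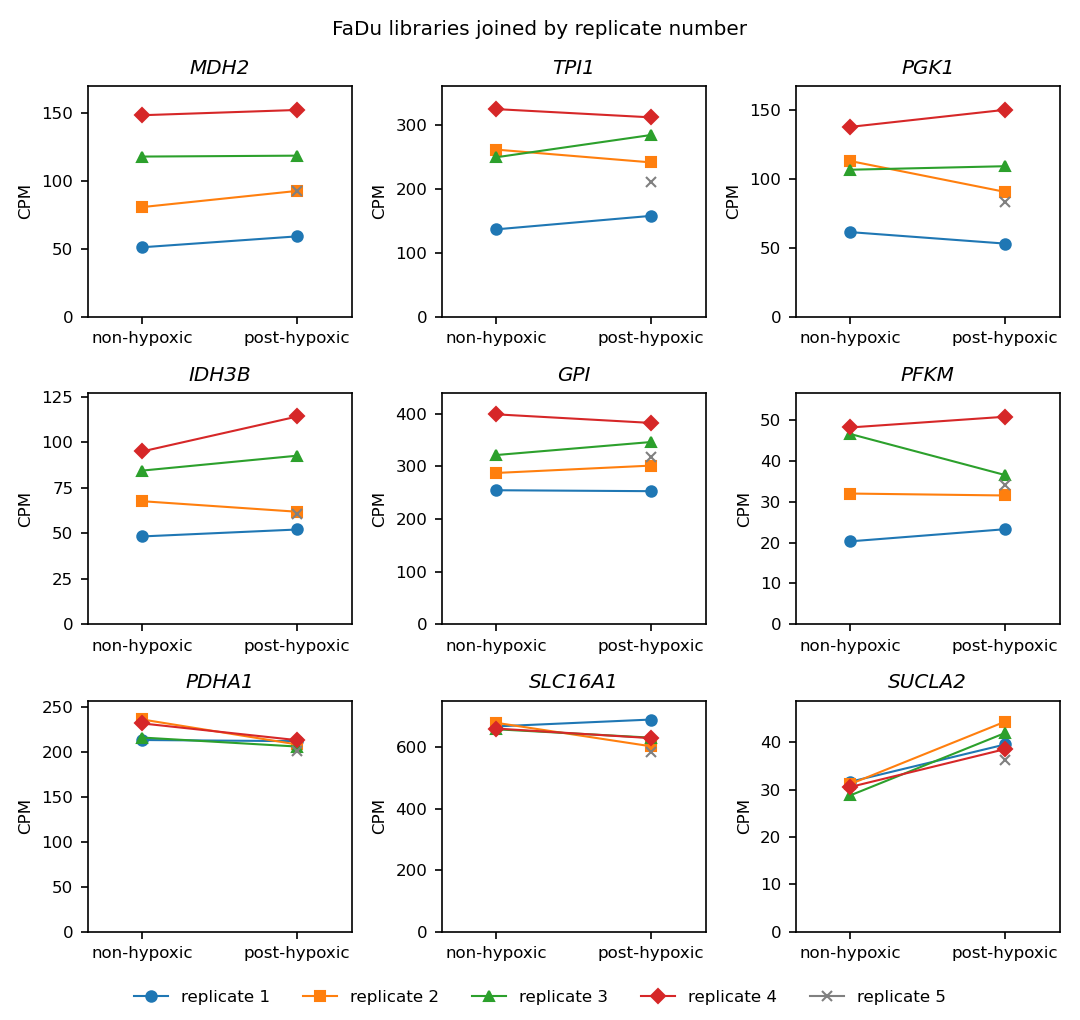
CPM of 9 genes in the FaDu libraries, non-hypoxic on the left and post-hypoxic on the right of each panel; lines join libraries with the same replicate number, and number 5 has a post-hypoxic library only. In the top and middle rows number 1 is lowest and number 4 highest in both fractions, as for MDH2 from about 51.1 to 152 CPM. For TPI1 and PGK1 the lines of numbers 2 and 3 cross. The lines of PDHA1, SLC16A1 and SUCLA2 lie close together.

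Other measures moved with the number. The 18 glycolytic and lactate members together deviated from their group mean by a median of -0.31 and -0.33 on the log2 scale at number 1, 0.10 and 0.06 at number 2, 0.02 and 0.10 at number 3, and 0.17 and 0.08 at number 4. For the HIF targets outside glycolysis the medians were -0.28 and -0.49, 0.43 and 0.21, -0.19 and 0.07, and 0.11 and 0.07. SLC2A1 was at 130.0 and 131 CPM at number 1 and at 172.8 CPM or more at the others. The share of counts from mitochondrial genes was 2.48% and 2.38%, 2.34% and 2.04%, 1.98% and 1.83%, and 1.74% and 1.67%. The part of any of these in the members' differences was not tested. With the replicate number as a term, the difference between the sorted fractions of FaDu was still called for 0 of 36 members.

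The DNA before the members' starts was searched for the core of the HIF motif, ACGTG or GCGTG, on both strands. The window was the 250 bases before the RefSeq start (GRCh38.p14), found for 35 of the 37 members, and overlapping matches counted once. The motif occurred before 21 of 35 members (60%), 10 of 18 glycolytic and lactate genes (55.6%) and 11 of 17 of pyruvate entry and the TCA cycle (64.7%). It occurred before 58.1% of the 9694 tested genes with such a window and in 43.2% of all 35116 windows. The share among members was thus close to that of tested genes with a window. A match is a string of letters, not a bound site. For 4 genes called for the FaDu number, the stretch of that window outside every GENCODE v29 exon is shown on the strand of the gene, 5′ to 3′, with matches in capitals. The PGK1 stretch (chrX:78103998-78104173, plus strand) holds 3 matches, that of GAPDH (chr12:6535142-6535263, plus strand) 1, that of LDHA (chr11:18394313-18394387, plus strand) 1, and that of IDH2 (chr15:90100696-90100871, minus strand) 0. The whole windows of LDHA and IDH2 hold 3 and 1, so IDH2 is among the 21. Their further matches lie outside the stretches shown. The PGK1, GAPDH and IDH2 stretches lie inside the spans that GENCODE v29 gives these genes, which begin farther upstream than the RefSeq start used.
PGK1: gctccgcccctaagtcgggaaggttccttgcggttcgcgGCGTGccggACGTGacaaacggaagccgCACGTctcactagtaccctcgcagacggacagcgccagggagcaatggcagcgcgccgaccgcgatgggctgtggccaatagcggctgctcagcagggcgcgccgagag
GAPDH: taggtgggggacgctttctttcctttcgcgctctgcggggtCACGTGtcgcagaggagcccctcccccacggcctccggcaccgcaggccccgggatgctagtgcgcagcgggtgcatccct
LDHA: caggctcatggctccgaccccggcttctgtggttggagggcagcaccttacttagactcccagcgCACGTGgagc
IDH2: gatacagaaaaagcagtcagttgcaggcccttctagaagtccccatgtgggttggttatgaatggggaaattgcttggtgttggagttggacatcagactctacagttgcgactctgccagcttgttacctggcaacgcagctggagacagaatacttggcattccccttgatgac
In LDHA and GAPDH the match is the palindrome CACGTG, which reads the same on both strands.

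Around the members, the neighbouring genes of the pathways also differed between the lines, as most genes did. Of all 12291 genes tested, 8472 were called in non-hypoxic and 8569 in post-hypoxic cells. SLC2A1 was at 130.0 CPM or more in every FaDu library and at 25.7 to 39.2 CPM in SCC154, with log2 differences of -2.75 ± 0.19 (SE, adjusted p = 9.12e-12) and -2.53 ± 0.19 (SE, adjusted p = 6.32e-11). PFKFB3, the kinase and phosphatase whose product activates phosphofructokinase, was higher in SCC154 by 1.57 and 1.85 (adjusted p = 3.86e-07 and 1.07e-08). Of 9 tested genes of the PFKFB family and other regulators of glycolysis, 3 were called higher and 4 lower in each comparison. PFKFB2, of the same family, went the other way, at 42.1 to 66.7 CPM in FaDu and 10.1 to 35.85 CPM in SCC154. Of the partners and regulators of pyruvate dehydrogenase, 2 of 10 tested genes were higher and 3 lower in each comparison. DLD, the third enzyme of that complex, was lower in SCC154 (-1.25 and -1.18; adjusted p = 5.39e-06 and 1.33e-05), as DLAT was, and so was MPC1, a subunit of the mitochondrial pyruvate carrier (-0.81 and -1.19; adjusted p = 0.00296 and 7.84e-05). PDP1, the phosphatase that switches the complex on, was higher (1.36 and 1.13; adjusted p = 1.54e-09 and 1.58e-08).

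Of 26 tested aconitase, succinate dehydrogenase and other TCA genes, 7 were higher and 14 lower in non-hypoxic cells, and 5 higher and 12 lower in post-hypoxic cells. Of all genes, 34.5% were called higher and 34.5% lower in non-hypoxic cells, and 34.8% higher and 34.9% lower in post-hypoxic cells. Succinate dehydrogenase was split: SDHA, its flavoprotein, was higher in SCC154 (1.22 and 1.57; adjusted p = 5.69e-07 and 6.07e-09), and SDHD, a membrane anchor, was lower (-1.91 and -2.30; adjusted p = 7.42e-09 and 3.40e-10). Of 7 tested pentose phosphate genes, 2 were higher and 3 lower in each comparison, TKT (transketolase) and PGD among the lower ones. Of 4 tested genes among other glycolytic isoenzymes and lactate carriers, 3 were called higher in non-hypoxic and 4 in post-hypoxic SCC154, and 0 lower. A gene without counts in FaDu passes the filter through SCC154 alone. SLC16A7, another carrier of the SLC16A family, was at 74.65 to 142 CPM in SCC154 and 33.8 to 67.2 CPM in FaDu. LDHC, the lactate dehydrogenase of the testis, had 0 counts in all FaDu libraries, which allows up to 0.361 CPM over the non-hypoxic and 0.274 CPM over the post-hypoxic ones. In SCC154 it was at 21.2 to 42.8 CPM, at least 72.3-fold higher in non-hypoxic and 131-fold higher in post-hypoxic cells, for a floor of 3 counts over the FaDu group.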

How the data were processed

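The deposited table holds whole-number read counts per gene symbol, made by the authors. Among the tools in the submitters' processing notes are HISAT2 2.2.1 for hg38, featureCounts 1.5.1 and UMI-tools 1.1.5, besides Trimmomatic 0.39, FastQC 0.11.9 and DESeq2, with no order, setting, strand or annotation. The library kit reads 3′ ends, so counts are tags per transcript, and multi-copy or overlapping ends can be lost or shared. Libraries were grouped by the line and sorted fraction in their titles.

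Counts were filtered with filterByExpr, scaled by TMM and tested with the quasi-likelihood test of edgeR 4.0.16 in R 4.3.3, with 4 group means over all 18 libraries, no replicate block and Benjamini-Hochberg adjustment over 12291 genes. The common biological coefficient of variation was 0.148 on 14 residual degrees of freedom. A gene is called at an adjusted p under 0.05. One CPM was 1.68 to 2.45 counts. The code was tested on simulated data. Alternatives included DESeq2 1.42.0, limma 3.58.1 with voom, other factors and filters, a replicate block and each library left out.

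Members and gene lists were chosen with earlier results of these data known. All members are accounted for; values per library are given for the 3 members of lowest p per direction within a line, the 6 largest called per direction between lines at a mean of 10 CPM or more, and both genes of a pair whose ratio passed. Of the other lists, up to 3 called genes are named, with SLC2A1, PDK1, CA9, NDRG1, BNIP3, VEGFA and ADM in any case. The genes shown for the FaDu replicate numbers, LDHC, PFKFB2 and SLC16A7 were chosen after their values were seen.

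Replicate numbers come from the titles. Deviations of same-numbered FaDu libraries from their group means correlated at 0.541, 0.197, 0.277 and 0.521 over 9875 genes, so these numbers were taken as pairs. Some FaDu libraries of unlike number correlated more: non-hypoxic replicate 2 with post-hypoxic replicate 5 at 0.285, and non-hypoxic replicate 4 with post-hypoxic replicate 3 at 0.328. In SCC154 number 2 gave 0.0345, so the SCC154 numbers were not taken as pairs. Gene positions are from GENCODE v29 and upstream sequence from RefSeq, both on GRCh38.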

Additional observations from a re-analysis of the deposited data

Results flagged for a closer look

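Among 144 combinations of a tested gene and a group, 7 had 1 library far from the others by Dixon's test at the 95% level, which chance gives in about 1 of 20 groups. HK2 was at 17.7 CPM in SCC154 non-hypoxic replicate 1 and at 28.8 to 33.0 CPM in the other libraries of that group. In the same library ALDOC was at 11.8 CPM, against 4.75 to 5.77 CPM. ENO2 was at 41.2 CPM in FaDu non-hypoxic replicate 2, against 14.7 to 16.9 CPM. LDHA was at 479 CPM in SCC154 post-hypoxic replicate 4, against 302 to 324 CPM. CS was at 46.3 CPM in SCC154 non-hypoxic replicate 3, against 22.1 to 28.5 CPM, and IDH3G in that library was at 7.44 CPM, against 13.3 to 15.4 CPM. IDH3B was at 79.0 CPM in SCC154 non-hypoxic replicate 4, against 35.6 to 43.3 CPM.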

How the results depend on the processing

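Counts of called members within FaDu and in the interaction were 0 under every alternative run. In SCC154 the count was 0 except as follows. With no filter on low counts 1 member (ENO2) was called, beside 291 of all 22591 genes. A replicate block within each line called 6: ALDOC, TPI1, PGK1 and ENO2 higher, CS and SUCLG1 lower. Over all 12291 genes that block called 1052, against 93 without it, and the cause was not tested. SCC154 libraries share only a number: same-numbered ones correlated at 0.0345, 0.378, 0.469 and 0.174, and in neither line did each library correlate best with its own number. The block within each line changed no member's call in FaDu, where it called 7 of all 12291 genes, against 0 without it. Shared across the lines, the replicate block gave 27 and 29 called members between the lines in non-hypoxic and post-hypoxic cells, against 24 and 28. That block put the members' median in SCC154 at 0.04, with 20 higher. Leaving out each library in turn gave 22 to 26 and 26 to 28. Of the isoenzyme ratios, 14 passed; with an offset of 0.1 CPM 7 did, and a test paired by replicate number (a replicate block) gave 0, since 4 pairs cannot go below an exact p of 0.125. Leaving out each library in turn gave 0 to 0, since fewer splits remain. For 64 values of single members, those called or with the lowest p within a line, 1836 repeats kept their side of the threshold, 4 gained a call and 26 lost one; those lost were of HK2, IDH3B, PDHB and IDH1 between the lines. A block within each line cannot be estimated between lines, and the interaction was not refitted on the libraries compared, since it uses all. At about 2 counts per CPM, PGAM1 and DLST carry wide intervals and ALDOA could not be tested.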
